A study of Mus musculus with 24 samples.

Results

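The clustered protocadherins of MC38 cells, a colon carcinoma line of C57BL/6 mice, were followed in 24 RNA samples of 8 lines. The members were taken from the gene table as every gene of chromosome 18 whose symbol begins with Pcdha, Pcdhb or Pcdhg, which gave 58 of the 52636 genes. They comprised 14 alpha, 22 beta and 22 gamma genes, which lie next to each other in this order between positions 36930184 and 37841873 of chromosome 18 (GRCm38). The table pairs identifiers only, so symbols came from a name table, in which 52403 genes had one. One identifier, ENSMUSG00000007440, carries the symbol Pcdha11 there as a further gene does, but lies where RefSeq places Pcdha10, and is called by its identifier below.

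Protocadherins are cadherin-like cell surface proteins whose extracellular domains bind the same isoform on a neighbouring cell. In the alpha and gamma clusters each gene has its own large variable exon with its own promoter, which is spliced to constant exons shared by the whole cluster, whereas each beta gene consists of a variable exon alone. In most neurons each promoter is chosen at random, with CTCF and cohesin joining it to a distant enhancer and DNA methylation keeping the others silent, while the C-type genes (Pcdhac1, Pcdhac2, Pcdhgc3, Pcdhgc4 and Pcdhgc5) follow other rules. In tumours, including those of the colon, silencing of these genes by methylation is well known.

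MC38-WT cells were unmodified and grew without puromycin, at passages 7 to 9. MC38-MOCK#1 carried a CRISPR-Cas9 mock construct, and the knockout lines were MC38-COSMC KO (C1galt1c1, the chaperone of T-synthase, without which O-glycans stop at the Tn antigen), MC38-CMAS KO (the enzyme that activates sialic acid) and MC38-DKO (both genes), all at passages 4 to 6. MC38-MOCK#2 carried a mock construct of the CRISPR-dCas-VPR activator and, like MC38-FUT9, was harvested at passages 6 to 8, and the line labelled FUT4 was harvested at passages 7 and 8, with passage 7 given for samples 1 and 3. FUT4 and FUT9 are fucosyltransferases that the activator was to switch on. All modified lines grew with puromycin, and MC38-COSMC KO had been sorted in bulk by lectin binding. The 3 samples of a line are harvests of that line, so that every p-value below measures the spread between harvests and not between independently made lines, and differences between lines cannot be told apart from differences that arose when each line was made. Passage and line cannot be told apart for MC38-WT and MC38-MOCK#1, whose passages do not overlap, and hardly for the mock lines, which share passage 6 only.

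The deposited values are whole read numbers per gene that were scaled by 1 factor per library, here called normalized counts, and summed to between 10911849 and 12263307 per sample. In the 19 samples in which it could be read from the steps between values, 1 read was worth 0.756 to 1.67 normalized counts, so that a value of 0 allows up to 3 reads, or 2.27 to 5.02 normalized counts, counting error only. Cmas RNA was lower in both lines that target it (93 to 126 normalized counts in MC38-CMAS KO and 122 to 142 in MC38-DKO, against 384 to 416 in MC38-MOCK#1). C1galt1c1 was at 124 to 163 in MC38-COSMC KO and at 166 to 206 in MC38-DKO, against 220 to 251 in MC38-MOCK#1 and 152 to 215 in MC38-CMAS KO. The difference from MC38-MOCK#1 passed the test in MC38-COSMC KO (adjusted p = 0.0128, limma) and not in MC38-DKO, and MC38-DKO and MC38-CMAS KO overlapped. Fut9 was at 641 to 955 in MC38-FUT9, but the line labelled FUT4 had 0 to 1 normalized counts of Fut4 and 171 to 209 of Fut9. The line is therefore called by its label throughout. Of 10 epithelial and colon markers 9, among them Epcam, Cdh1 and Cdx2, stayed at 8 or below in all samples, whereas Krt20 reached 468 in the line labelled FUT4. Krt20 was also higher in MC38-CMAS KO than in MC38-MOCK#1 (4.75 log2, adjusted p = 0.00507, limma). All 6 mesenchymal markers were above 10 in all samples. Among 7 neuronal markers Rbfox3 and Snap25 were near 0, while Map2 (3 to 403) and Slc17a7 (11 to 127) were present. The summed level per sample was 0 to 11 for 4 glial, 2 to 21 for 5 leukocyte and 0 to 19 for 3 endothelial markers. The neuronal marker Syt1, the leukocyte marker Ptprc and the endothelial marker Cdh5 were higher in the line labelled FUT4 than in MC38-MOCK#2 (adjusted p = 0.00128, 0.0383 and 0.0324, limma).

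To ask which members were on in which line, a member was called on in a line when all 3 samples had at least 10 normalized counts, and near 0 when all 3 had at most 1. In RNA of whole cultures, fewer cells with a gene on and less RNA per cell cannot be told apart. Of the 58 members 13 were on in at least 1 line, and 2 of these, Pcdhgc3 and Pcdhb22, were on in all 8 lines. The other 11 were on in 1 to 6 lines, 45 members were on in no line and 9, all of them alpha genes, were near 0 in all 8. Between 6 (MC38-DKO, MC38-MOCK#2, MC38-FUT9) and 9 (MC38-COSMC KO) members were on in a line, with 7 in MC38-WT and 8 each in MC38-MOCK#1, MC38-CMAS KO and the line labelled FUT4. The heat map of all members shows a single bright row, Pcdhgc3, over a patchwork of beta genes and a dark alpha cluster.

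**Figure D1:**
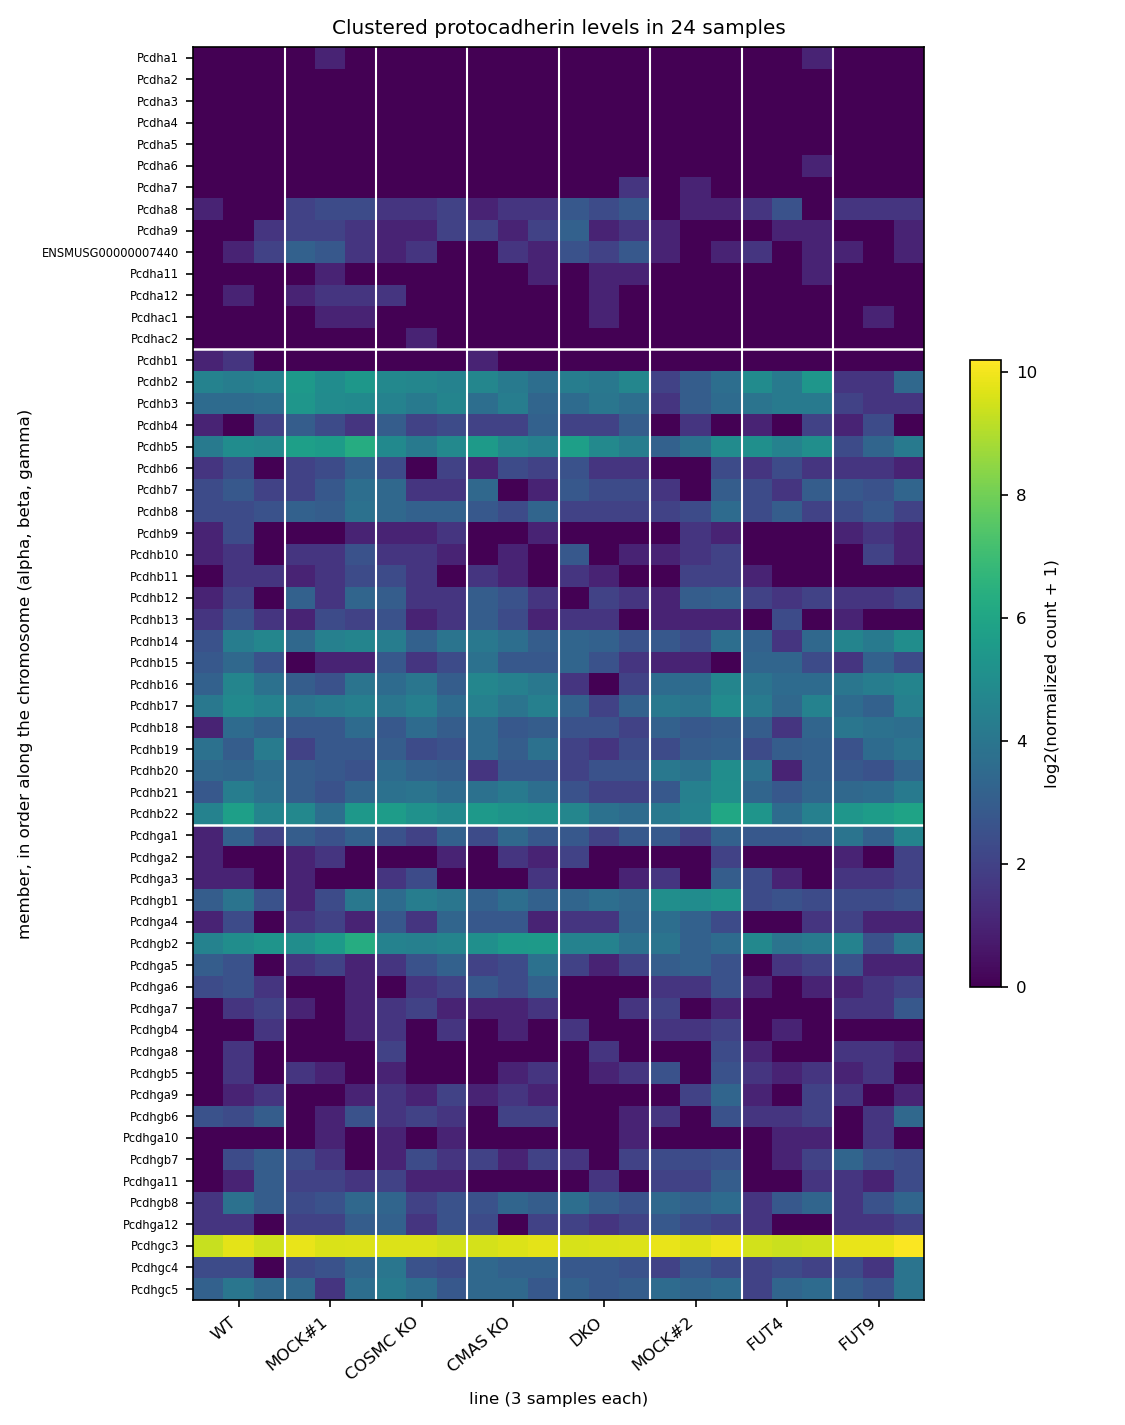
Level of the 58 members (rows, in order along the chromosome) in 24 samples (columns, 3 per line), as log2 of the normalized count plus 1 in colour. The white horizontal lines part the 14 alpha, 22 beta and 22 gamma genes; Pcdhgc3 is bright in all samples, and no alpha gene exceeds 8 normalized counts.

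All 58 members could be described, and 50 had a value above 0 in at least 3 samples and entered the test across the 8 lines (limma's F test on log2 of the normalized count plus 1, with Benjamini-Hochberg adjustment over all 24847 genes tested). Of these 50, 17 were called at an adjusted p below 0.05, against 40.8% of all genes tested. Among genes with a mean of at least 10 the shares were 9 of 11 members and 67.7% of all genes tested, so that the members' place against the background turned with the filter. The called members were Pcdha8, Pcdha9, ENSMUSG00000007440, Pcdha12, Pcdhb2, Pcdhb3, Pcdhb5, Pcdhb15, Pcdhb16, Pcdhb17, Pcdhb19, Pcdhb21, Pcdhgb1, Pcdhgb2, Pcdhga6, Pcdhga11 and Pcdhgc3. The range over the line means had a median of 1.72 on the log2 scale over the 50 tested members, against 0.86 over all genes tested, but low genes spread more on this scale and most members are low.

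Pcdhgc3, a C-type gene of the gamma cluster that is widely expressed outside the nervous system, was by far the most abundant member. It had 653, 877 and 714 normalized counts in MC38-WT, 924, 796 and 815 in MC38-MOCK#1, 810, 809 and 731 in MC38-COSMC KO, 742, 808 and 872 in MC38-CMAS KO and 765, 788 and 815 in MC38-DKO. In MC38-MOCK#2 it had 927, 834 and 981, in the line labelled FUT4 731, 665 and 703, and in MC38-FUT9 942, 938 and 1118. The samples of MC38-WT, MC38-MOCK#1 and the 3 knockout lines overlapped each other. The line labelled FUT4 lay below every sample of MC38-MOCK#1, MC38-CMAS KO, MC38-DKO, MC38-MOCK#2 and MC38-FUT9, and MC38-FUT9 lay above every sample of all lines but MC38-MOCK#2. Pcdhgc3 alone held 62.0% to 80.1% of the summed level of all 58 members (median 73.2%). Per kilobase of exon that no other gene of its strand covers, its mean level over the 24 samples was 244 normalized counts, and the next members were Pcdhgb2 at 9.35, Pcdhb5 at 8.06, Pcdhb2 at 7.23 and Pcdhb22 at 5.26, so that Pcdhgc3 stood 26.1 times above the second. Its level differed among the lines (adjusted p = 0.00437 by limma's F test) over a narrow range of 0.51 on the log2 scale, from a mean of 699.7 ± 33.1 (SD, n = 3) in the line labelled FUT4 to 999.3 ± 103 in MC38-FUT9. The other C-type genes were low. Pcdhgc5 lay between 2 and 17 and Pcdhgc4 between 0 and 15 normalized counts, with neither on in any line, and Pcdhac1 and Pcdhac2 did not exceed 1.

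**Figure D2:**
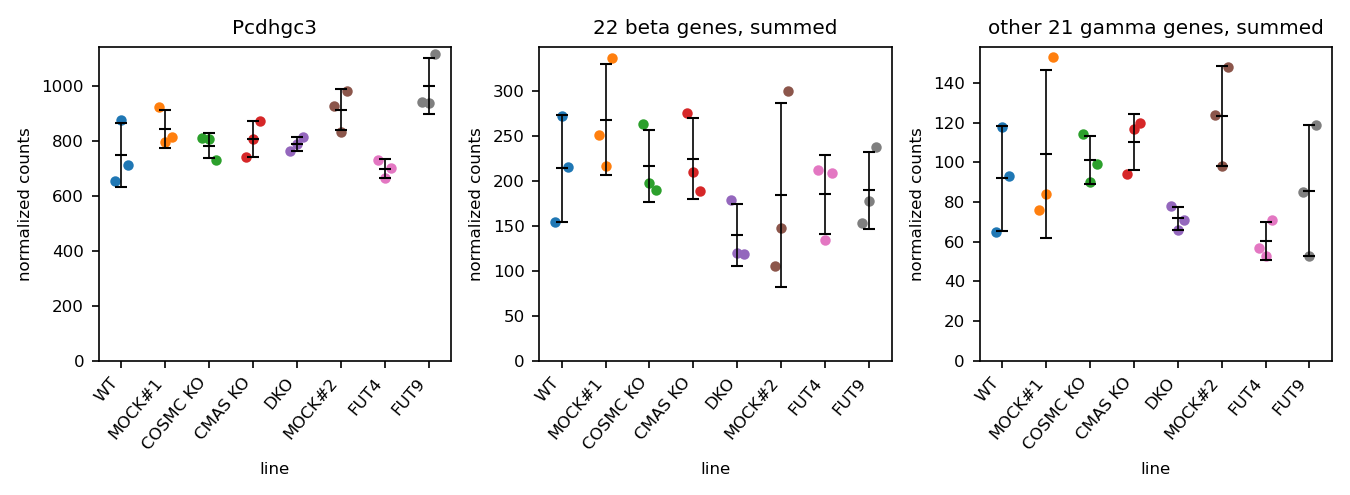
Normalized counts (y axis, from 0) of Pcdhgc3, of the 22 beta genes together and of the other 21 gamma genes together in the 8 lines (x axis). Points are the 3 samples of a line and bars the mean ± SD; Pcdhgc3 stays between 653 and 1118, while the beta sum ranges from 105 to 336.

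The alpha genes were nearly silent. Of the 14 genes 11 did not exceed 2 normalized counts in any sample, 4 were at 0 in all 24 samples, and no alpha gene exceeded 8. The summed level of the alpha genes was 15, 18 and 11 in MC38-MOCK#1 and 19, 11 and 17 in MC38-DKO. In the other lines it was 1, 2 and 5 in MC38-WT, 6 in each sample of MC38-COSMC KO, 4, 5 and 7 in MC38-CMAS KO, 2 in each sample of MC38-MOCK#2, 4, 6 and 5 in the line labelled FUT4 and 3, 3 and 4 in MC38-FUT9. MC38-MOCK#1 and MC38-DKO thus did not overlap with any other line. Pcdha8, Pcdha9 and ENSMUSG00000007440, which are neighbours on the chromosome, held most of this sum in MC38-MOCK#1 and MC38-DKO. Pcdha8 had 3, 4 and 4 normalized counts in MC38-MOCK#1 and 6, 4 and 6 in MC38-DKO and at most 3 in every sample of the other lines but 1 of the line labelled FUT4, which had 5 (adjusted p = 0.00808 across the 8 lines, limma). ENSMUSG00000007440 had 8, 6 and 2 in MC38-MOCK#1 and 5, 3 and 6 in MC38-DKO and at most 3 elsewhere (adjusted p = 0.0297, limma). These values are close to what a few reads give. Reads that fall wholly in the constant exons overlap all genes of the cluster and were not counted, and only 44.7% of the exon bases of the alpha genes and 57.3% of those of the gamma genes are their own, against 99.0% for the beta genes.

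The beta genes, which are intronless, were more widely detected. All 22 had a value above 0 in at least 3 samples, 10 were on in at least 1 line, and 1 was on in all. Their summed level was highest in MC38-MOCK#1 (251, 216 and 336 normalized counts) and lowest in MC38-DKO (179, 120 and 119). MC38-MOCK#2 spread the most (105, 147 and 300). When the beta genes were divided by position into the first 11 and the last 11, the division was made after the values had been seen and was not tested. The first 11 summed to 162 ± 31.0 (SD, n = 3) in MC38-MOCK#1 and to 34.0 ± 10.5 in MC38-FUT9, and the last 11 to 106 ± 32.4 and 155 ± 33.3 in the same lines. MC38-DKO was the lowest line for the last 11 (71, 49 and 46) and stood in the middle for the first 11 (108, 71 and 73).

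**Figure D3:**
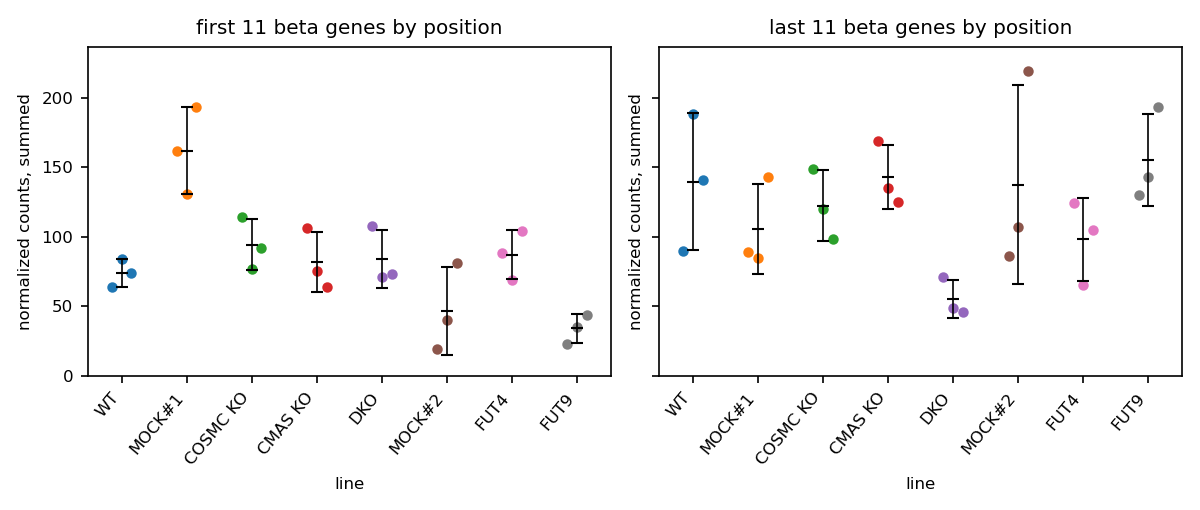
Summed normalized counts (y axis, from 0) of the first 11 and of the last 11 beta genes along the chromosome in the 8 lines (x axis), as 3 samples per line with the mean ± SD. MC38-MOCK#1 is highest and MC38-FUT9 lowest in the first 11, where the means are 162 and 34.0, while MC38-DKO is lowest in the last 11.

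Pcdhb2, Pcdhb3 and Pcdhb5, which lie between positions 37294812 and 37323915, were the leading genes of the first 11. Pcdhb2 had 45, 30 and 41 normalized counts in MC38-MOCK#1, 22, 19 and 22 in MC38-WT, 26, 25 and 22 in MC38-COSMC KO, 25, 17 and 12 in MC38-CMAS KO and 19, 16 and 25 in MC38-DKO. It had 29, 17 and 40 in the line labelled FUT4, but 3, 7 and 12 in MC38-MOCK#2 and 2, 2 and 10 in MC38-FUT9. The last pair of lines lay wholly below all others except for a tie at 12 (adjusted p = 0.000126 across the 8 lines, limma). Pcdhb3 followed the same order at the ends. It had 40, 29 and 28 in MC38-MOCK#1, 22, 17 and 23 in MC38-COSMC KO, 14, 17 and 17 in the line labelled FUT4, 12, 19 and 9 in MC38-CMAS KO, 11, 15 and 12 in MC38-DKO, 11, 11 and 12 in MC38-WT, 2, 7 and 11 in MC38-MOCK#2 and 3, 2 and 2 in MC38-FUT9 (adjusted p = 1.51e-05, limma). MC38-MOCK#1 was above and MC38-FUT9 below every other line but for samples of MC38-MOCK#2 (the lowest of which was 2), while MC38-WT, MC38-CMAS KO and MC38-DKO overlapped. Pcdhb5 had 53, 47 and 79 in MC38-MOCK#1, 53, 27 and 19 in MC38-DKO, 46, 26 and 21 in MC38-CMAS KO, 33, 22 and 32 in the line labelled FUT4, 17, 30 and 27 in MC38-WT, 28, 17 and 27 in MC38-COSMC KO, 8, 13 and 29 in MC38-MOCK#2 and 4, 9 and 17 in MC38-FUT9 (adjusted p = 0.0048, limma). These 3 genes varied together: over the 8 line means of log2 of the normalized count plus 1, Pearson's r was 0.93 to 0.97 between them, a description over 8 points that share libraries. They were on in the same 5 lines, MC38-WT, MC38-MOCK#1, MC38-COSMC KO, MC38-DKO and the line labelled FUT4, and Pcdhb2 and Pcdhb5 also in MC38-CMAS KO.

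Among the last 11 beta genes, Pcdhb22 at the end of the cluster was the highest. It had 22, 53 and 23 normalized counts in MC38-WT, 26, 12 and 42 in MC38-MOCK#1, 49, 35 and 28 in MC38-COSMC KO, 43, 37 and 34 in MC38-CMAS KO, 25, 13 and 11 in MC38-DKO, 16, 22 and 67 in MC38-MOCK#2, 39, 11 and 21 in the line labelled FUT4 and 40, 49 and 59 in MC38-FUT9. Samples of 1 line thus differed as much as lines did, and Pcdhb22 was not called (adjusted p = 0.191, limma's F test). Pcdhb16 had 25, 21 and 16 in MC38-CMAS KO, 15, 19 and 23 in MC38-FUT9, 11, 11 and 24 in MC38-MOCK#2, 8, 24 and 13 in MC38-WT, 14, 11 and 11 in the line labelled FUT4, 11, 15 and 7 in MC38-COSMC KO, 7, 5 and 14 in MC38-MOCK#1 and 2, 0 and 3 in MC38-DKO (adjusted p = 0.000332). MC38-DKO lay below every sample of the other 7 lines.

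Pcdhb17 was on in 6 lines, and had its highest mean in MC38-WT (16, 28 and 22) and its lowest in MC38-DKO (8, 3 and 8; adjusted p = 0.0384, limma). Pcdhb19 (13, 7 and 18 in MC38-WT, 3, 2 and 4 in MC38-DKO) and Pcdhb21 (6, 21 and 32 in MC38-MOCK#2, 5, 3 and 3 in MC38-DKO) were also called. Pcdhb14 (23, 17 and 31) and Pcdhb18 (15, 13 and 12) had their highest means in MC38-FUT9 and Pcdhb20 (16, 13 and 31) in MC38-MOCK#2, where they were on, and were not called across the lines. MC38-DKO had the lowest mean of 8 of the 16 members whose mean reached 10 in some line, and MC38-FUT9 the highest mean of 5. Between Pcdhb2, Pcdhb3 and Pcdhb5 on 1 side and 8 genes of Pcdhb14 to Pcdhb22 on the other, the median r over the 8 line means was -0.39 (24 pairs, -0.61 to 0.09), whereas it was 0.58 within the latter (28 pairs, -0.08 to 0.90). These genes share their libraries, and the values describe these 8 lines only.

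Pcdhb15 was on in no line and was near 0 in both mock lines. It had 0, 1 and 1 normalized counts in MC38-MOCK#1 and 1, 1 and 0 in MC38-MOCK#2, against 6, 10 and 5 in MC38-WT, 6, 2 and 4 in MC38-COSMC KO, 13, 6 and 6 in MC38-CMAS KO, 9, 5 and 2 in MC38-DKO, 9, 9 and 4 in the line labelled FUT4 and 2, 8 and 4 in MC38-FUT9 (adjusted p = 0.00117 across the 8 lines, limma). The mock lines lay below every sample of the other 6 lines. The 12 beta genes that were on in no line reached at most 18.

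**Figure D4:**
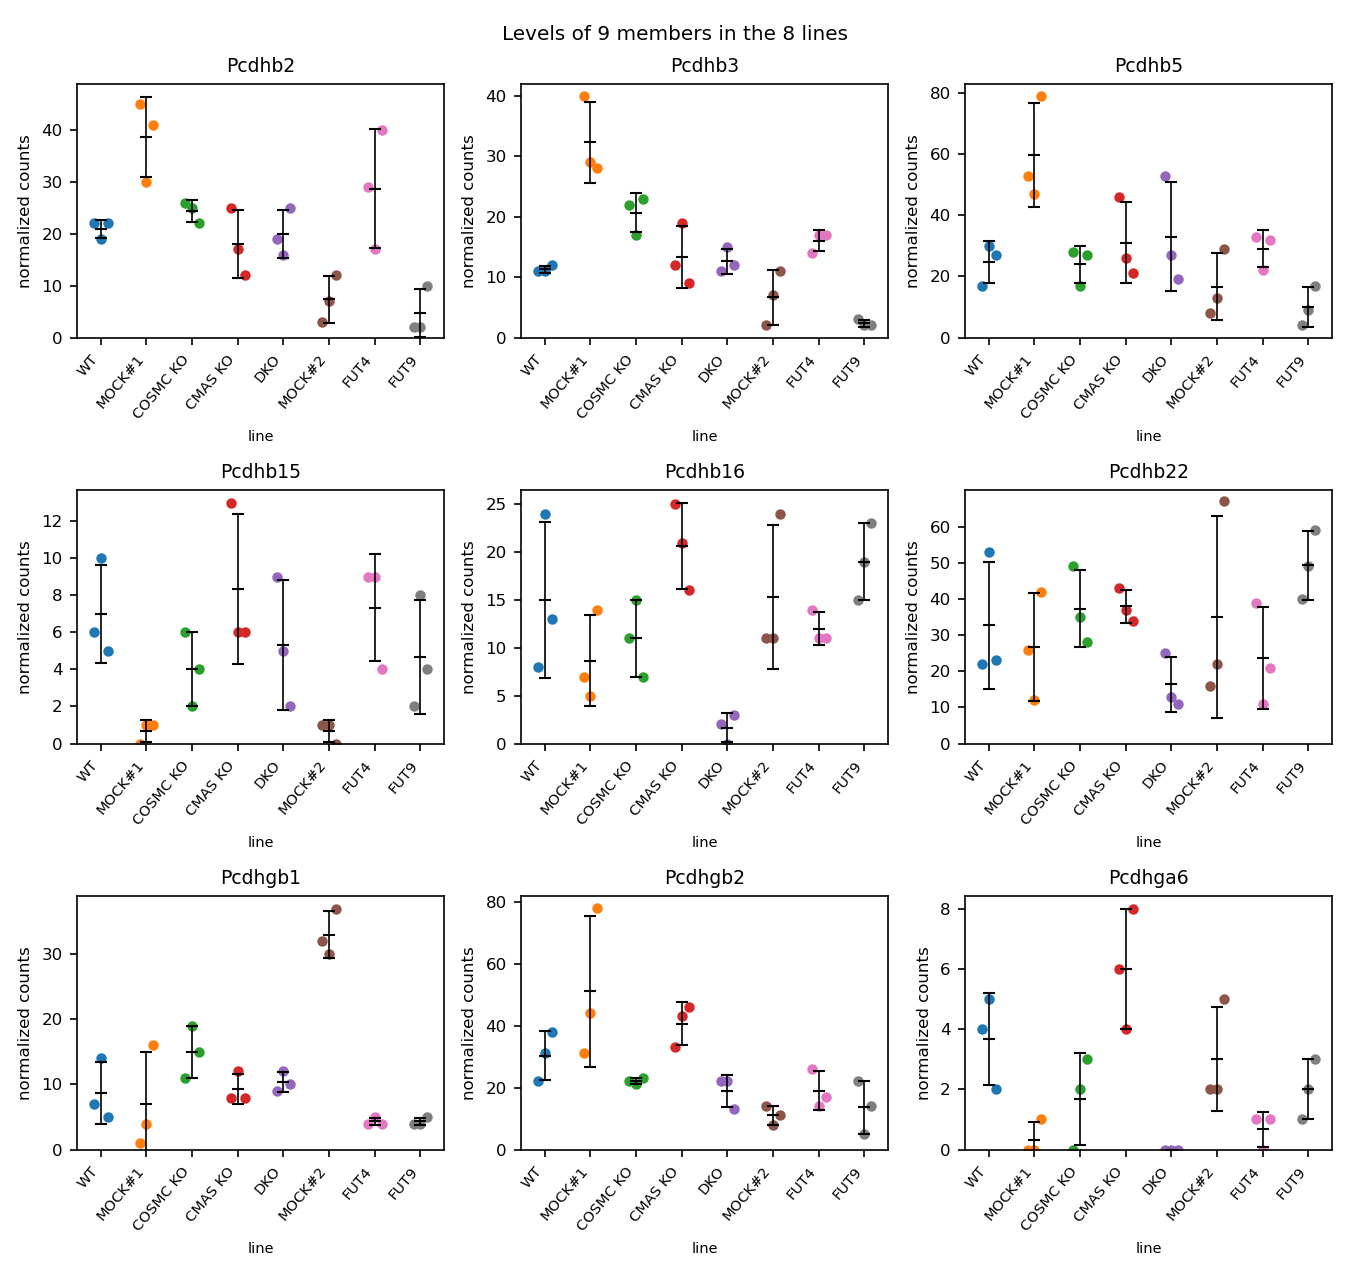
Normalized counts (y axes, from 0, scaled per gene) of 9 members in the 8 lines (x axes), as 3 samples per line with the mean ± SD. Pcdhb2, Pcdhb3 and Pcdhb5 are highest in MC38-MOCK#1 and lowest in MC38-FUT9, Pcdhb15 is near 0 in both mock lines, Pcdhb16 is lowest in MC38-DKO, and Pcdhgb1 stands at 30 to 37 in MC38-MOCK#2.

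Of the 19 genes Pcdhga1 to Pcdhga12 and Pcdhgb1 to Pcdhgb8, which sit before the C-type genes of the gamma cluster, Pcdhgb1 and Pcdhgb2 were on in some lines. Pcdhgb2 had 31, 44 and 78 normalized counts in MC38-MOCK#1, 33, 43 and 46 in MC38-CMAS KO, 22, 31 and 38 in MC38-WT, 22, 21 and 23 in MC38-COSMC KO, 22, 22 and 13 in MC38-DKO, 26, 14 and 17 in the line labelled FUT4, 22, 5 and 14 in MC38-FUT9 and 14, 8 and 11 in MC38-MOCK#2 (adjusted p = 0.0016 across the 8 lines, limma). Its highest and lowest lines were the 2 mock lines, which did not overlap. Pcdhgb1, its neighbour but for Pcdhga4, had the opposite order in them. It had 32, 30 and 37 in MC38-MOCK#2 and 1, 4 and 16 in MC38-MOCK#1, with 11, 19 and 15 in MC38-COSMC KO, 9, 12 and 10 in MC38-DKO, 8, 12 and 8 in MC38-CMAS KO, 7, 14 and 5 in MC38-WT, 4, 5 and 4 in the line labelled FUT4 and 4, 4 and 5 in MC38-FUT9 (adjusted p = 0.0017, limma). MC38-MOCK#2 lay above every sample of the other lines.

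Pcdhga6 was in no line above 8 normalized counts, and had 6, 4 and 8 in MC38-CMAS KO, 4, 5 and 2 in MC38-WT, 2, 2 and 5 in MC38-MOCK#2 and 0 in all samples of MC38-DKO (adjusted p = 0.00072, limma). Pcdhga1 reached 14, 8 and 23 in MC38-FUT9 and 1 to 10 elsewhere, without being called. Excluding Pcdhgc3, the gamma genes summed to 57, 53 and 71 in the line labelled FUT4 and to 124, 98 and 148 in MC38-MOCK#2, which did not overlap. The members with a mean of at least 10 in some line ended with Pcdhb19 (12.7) and Pcdhgc5 (11.7), and the next below were Pcdhgb8 (9.67) and Pcdhb8 (9.33).

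Each modified line was next compared with its mock line, in separate limma fits of 3 against 3 samples. A fold change is a difference of log2 of the normalized count plus 1, which understates the change of low genes. The 5 lines from MC38-WT to MC38-MOCK#2 were compared with the same 3 samples of MC38-MOCK#1, and the 2 activator lines with the same 3 samples of MC38-MOCK#2, so that the comparisons with 1 mock line are not independent of each other. In no single comparison did more than 5 members pass. With 3 against 3 samples, lines that do not overlap are common. This was so for 11.2% of all genes tested in MC38-DKO and for 23.4% to 36.8% in the other comparisons.

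Between MC38-COSMC KO and MC38-MOCK#1, 1 of 47 members tested was called, against 11.6% of all genes tested. Pcdhb5 was lower, at 24.0 ± 6.08 against 59.7 ± 17.0 normalized counts (SD, n = 3 each), or -1.28 ± 0.29 (SE) on the log2 scale (adjusted p = 0.0321, limma). The call was lost when any 1 of the 6 samples was left out, with values of -1.43 to -1.06. MC38-WT, which was not modified, had 24.7 ± 6.81 normalized counts of Pcdhb5, and MC38-MOCK#1 had the highest mean of all lines. Pcdhb2 and Pcdhb3 had values of -0.63 ± 0.23 and -0.61 ± 0.25 with adjusted p of 0.135 and 0.175 (limma). Pcdhgc3 had -0.11 ± 0.08 (adjusted p = 0.453). The median over the tested members was -0.05 log2, against -0.15 over 450 other genes of chromosome 18 and 0 over all genes tested.

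Between MC38-CMAS KO and MC38-MOCK#1, 3 of 47 members tested were called, a share near the 5.76% of all genes tested. Pcdhb15 (8.33 against 0.67 normalized counts, 2.47 ± 0.47 log2, adjusted p = 0.0315) and Pcdhga6 (6.00 against 0.33, 2.43 ± 0.44, adjusted p = 0.0272, both limma) were higher in MC38-CMAS KO. Pcdhga11 was at 0 in all 3 samples against 3, 3 and 2 (adjusted p = 0.0236, limma), a difference of at most 3 normalized counts in any sample. The call of Pcdhb15 was lost when any 1 of the 6 samples was left out, and the calls of Pcdhga6 and Pcdhga11 in 5 of those 6 fits. Pcdhb15 was also called higher in unmodified MC38-WT than in MC38-MOCK#1 (2.28 log2, adjusted p = 0.0393, limma), and was near 0 in both mock lines. Pcdhb3 had 12, 19 and 9 against 40, 29 and 28 without passing (-1.26 ± 0.33, adjusted p = 0.0768).

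In MC38-DKO no member of 45 tested was called by limma against MC38-MOCK#1, and 0.092% of all genes tested, or 20 genes, were. At an unadjusted p below 0.05 the numbers were 10 of 45 members and 1632 of 21738 genes. The median over the tested members was -0.38 log2, against -0.02 over 443 other genes of chromosome 18, and was -0.75 over the beta and -0.01 over the gamma members. Pcdhb16 had 2, 0 and 3 against 7, 5 and 14 normalized counts (-1.97 ± 0.63, adjusted p = 0.468), and Pcdhb3 11, 15 and 12 against 40, 29 and 28 (-1.28 ± 0.29, adjusted p = 0.283). Their samples did not overlap, although the test did not pass. The same held without regard to the test for 9 of the 45 members and for 11.2% of all genes tested.

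MC38-WT and MC38-MOCK#1, which differ in the construct, in puromycin and in passage, gave 2 calls among 47 members tested, against 5.51% of all genes tested. Pcdhb3 was lower in MC38-WT (11.3 ± 0.58 against 32.3 ± 6.66 normalized counts, -1.42 ± 0.28 log2, adjusted p = 0.0345) and Pcdhb15 was higher (7.00 against 0.67, 2.28 ± 0.48, adjusted p = 0.0393, both limma). Both calls were lost when any 1 of the 6 samples was left out.

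The 2 mock lines differed in 5 of 46 members tested, against 11.3% of all genes tested. All 5 were lower in MC38-MOCK#2, a direction in which 6.02% of all genes tested were called. Pcdhb2 (7.33 ± 4.51 against 38.7 ± 7.77 normalized counts) had a change of -2.39 ± 0.46 log2 (adjusted p = 0.0219, limma), Pcdhb3 of -2.32 ± 0.53 (adjusted p = 0.0382), Pcdhb5 of -1.93 ± 0.46 (adjusted p = 0.0443) and Pcdhgb2 of -2.05 ± 0.39 (adjusted p = 0.0213). Pcdha12 had 0 in all samples against 1, 2 and 2 (adjusted p = 0.0436). Among genes with a mean of at least 10, 6 of 12 members were called, against 20.3% of all genes tested. Pcdhgb1 differed the other way without passing (33.0 ± 3.61 against 7.00 ± 7.94, 2.61 ± 0.73, adjusted p = 0.0674). The calls of Pcdhb2 and Pcdhb3 were each lost in 4, and those of the other members in 5, of the 6 fits that left out 1 sample. No glycosylation gene was targeted in either line, but their passages differ. With rising passage in MC38-MOCK#2, Pcdhb2 had 3, 7 and 12, Pcdhb3 2, 7 and 11 and Pcdhb5 8, 13 and 29 normalized counts. The last 11 beta genes, of which none was called here, also rose together in these samples (86, 107 and 219). Pcdhgb2 and Pcdha12 did not rise, and passage was not tested.

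Between the line labelled FUT4 and MC38-MOCK#2, 5 of 45 members tested were called, against 16.1% of all genes tested. Pcdhgb1 was lower (4.33 ± 0.58 against 33.0 ± 3.61 normalized counts, -2.67 ± 0.28 log2, adjusted p = 0.00151, limma), and the call held in each of the 6 fits without 1 sample. Pcdhgc3 was lower by a small amount (700 ± 33.1 against 914 ± 74.4, -0.38 ± 0.08, adjusted p = 0.0222), a call lost in 5 of those 6 fits. Pcdhga4 had 0, 0 and 2 against 12, 8 and 4 (-2.54 ± 0.60, adjusted p = 0.0313), and Pcdhb15 was higher (7.33 against 0.67, 2.32 ± 0.48, adjusted p = 0.0198). The calls of Pcdhga4 and Pcdhb15 were each lost in 4 of the fits without 1 sample. Pcdhb10 had 0 in all samples against 1, 2 and 3 (adjusted p = 0.0357), and this call was lost in 5 of them. Pcdhb2 had 29, 17 and 40 against 3, 7 and 12 and did not pass (1.91 ± 0.52, adjusted p = 0.0509).

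MC38-FUT9 against MC38-MOCK#2 gave 5 calls among 45 members tested, against 24.1% of all genes tested. Pcdhgb1 was again far below MC38-MOCK#2 (4.33 ± 0.58 against 33.0 ± 3.61, -2.67 ± 0.27 log2, adjusted p = 0.000944, limma) and the call held in all 6 fits without 1 sample. It was the same 3 samples of MC38-MOCK#2 that were high in both comparisons. Pcdhb14 was higher (23.7 ± 7.02 against 7.33 ± 4.16, 1.64 ± 0.43, adjusted p = 0.0348), Pcdhb20 was lower (6, 5 and 9 against 16, 13 and 31, -1.39 ± 0.41, adjusted p = 0.0486) and Pcdhga4 was lower (1.67 against 8.00, -1.73 ± 0.50, adjusted p = 0.0471). Each of these 3 calls was lost in 5 or 6 of the fits without 1 sample. Pcdhgb4 had 0 in all samples against 2, 2 and 3 (adjusted p = 0.00917, limma), and the call held in all 6 fits without 1 sample, although the difference was at most 3 normalized counts in any sample.

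MC38-MOCK#1, MC38-COSMC KO, MC38-CMAS KO and MC38-DKO form a design of 2 by 2 knockout labels. The effect of the COSMC KO label beside the CMAS KO label (MC38-DKO minus MC38-CMAS KO) was compared with that without it (MC38-COSMC KO minus MC38-MOCK#1). C1galt1c1 RNA itself had an interaction of 0.73 log2 (adjusted p = 0.0217, limma), being lower in MC38-COSMC KO than in MC38-MOCK#1 but overlapping between MC38-DKO and MC38-CMAS KO. Of 48 members tested 7 were called in this interaction, against 20.8% of all genes tested. Pcdhb16, Pcdhb21 and Pcdhb22 had interaction values of -3.59 ± 0.76, -2.50 ± 0.51 and -1.85 ± 0.59 on the log2 scale (adjusted p = 0.00429, 0.00318 and 0.0397, limma). Pcdhb21 had 7, 5 and 9 normalized counts in MC38-MOCK#1, 13, 14 and 11 in MC38-COSMC KO, 13, 17 and 12 in MC38-CMAS KO and 5, 3 and 3 in MC38-DKO. Both lines with 1 knockout were above MC38-MOCK#1, and the line with both was at or below it. Pcdhga6 (-3.63 ± 0.74, adjusted p = 0.00321) and Pcdhga9 (-2.39 ± 0.59, adjusted p = 0.0107) had values of the same sign, with 0 in all samples of MC38-DKO. Pcdha8 (1.75 ± 0.54, adjusted p = 0.0351) and ENSMUSG00000007440 (3.26 ± 0.82, adjusted p = 0.0116) had the opposite sign, being low in both single knockouts. Of these 7 members, Pcdhb16, Pcdhb21 and Pcdhb22 alone exceeded 10 in any of the 4 lines.

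**Figure D5:**
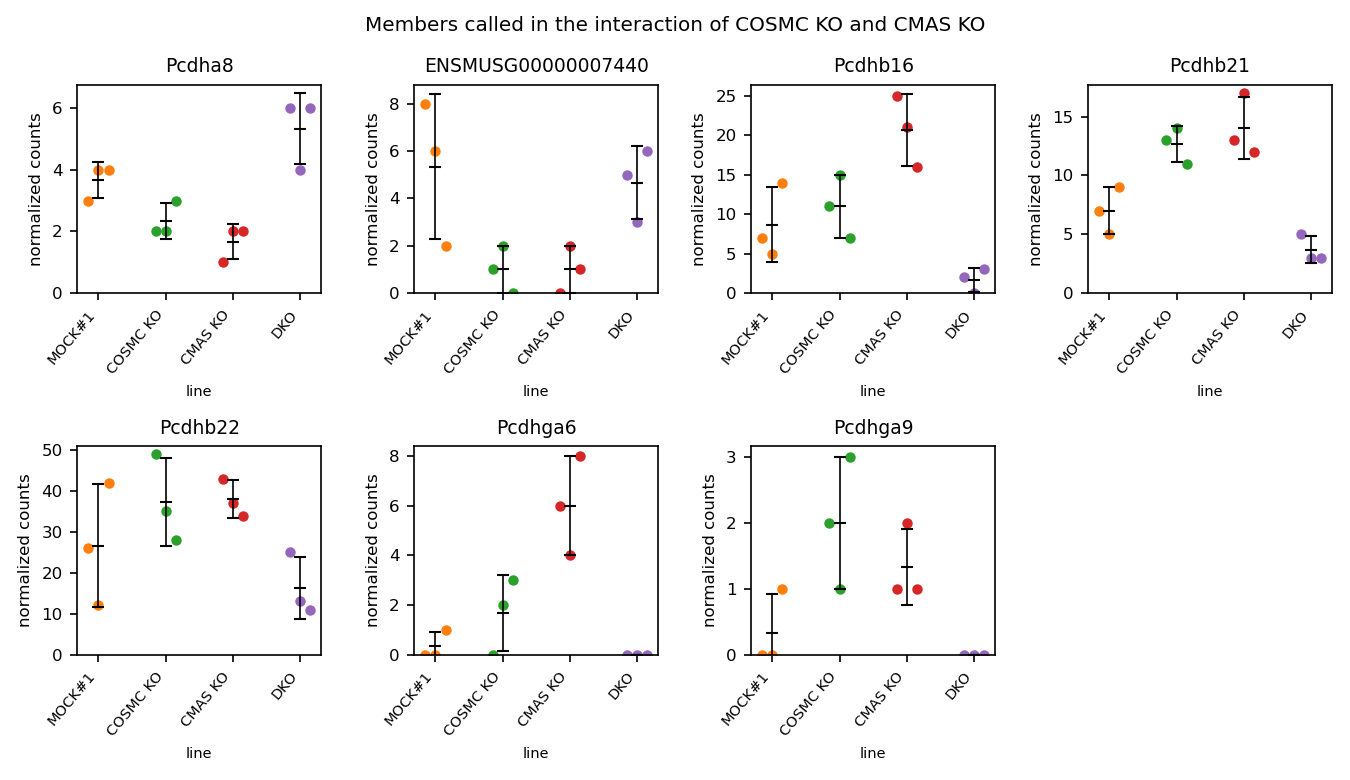
Normalized counts (y axes, from 0, scaled per gene) of the 7 members called in the interaction, in MC38-MOCK#1, MC38-COSMC KO, MC38-CMAS KO and MC38-DKO (x axes), as 3 samples per line with the mean ± SD. Pcdhb16, Pcdhb21 and Pcdhb22 have their lowest mean in MC38-DKO, and Pcdha8 is lowest in the single knockouts.

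The genes around the cluster were read beside it. Within 1000000 bases on either side lie 82 genes that are no members, of which 25 of 56 tested were called across the 8 lines. Outside the span of the cluster, 21 of 46 were called, and both shares were near the 40.8% of all genes. Cystm1 had 216, 235 and 244 normalized counts in MC38-MOCK#1, 226, 251 and 246 in MC38-DKO and 23, 25 and 47 in MC38-MOCK#2 (-2.90 log2 between the mock lines, adjusted p = 0.00218, limma). The first 11 beta genes summed to 46.7 ± 31.5 (SD, n = 3) in MC38-MOCK#2, against 162 ± 31.0 in MC38-MOCK#1. Cystm1 was also lower than in MC38-MOCK#1 in MC38-COSMC KO, MC38-CMAS KO and MC38-WT (adjusted p = 0.00189, 0.00776 and 0.00515, limma). There the first 11 beta genes had mean sums of 94.3, 81.7 and 74.0. Cystm1 was higher in the line labelled FUT4 than in MC38-MOCK#2 (adjusted p = 0.00302, limma), and these genes had a mean sum of 87.0 there. In MC38-DKO, where Cystm1 was not called, they summed to 84.0 ± 20.8. Cystm1 is 1 of the 25 called neighbours, and its relation to these sums was not tested. Over all other tested genes of chromosome 18, the median change was -0.15 log2 in MC38-COSMC KO, -0.19 in MC38-CMAS KO, -0.14 in MC38-WT and -0.17 in MC38-MOCK#2 against MC38-MOCK#1, whereas it was -0.02 in MC38-DKO. Of the 69 such genes called between the mock lines 58 were lower in MC38-MOCK#2. Of the 5 lines compared with MC38-MOCK#1, these 4 also had the lower alpha sums. The line labelled FUT4 and MC38-FUT9, whose alpha sums were low too, were not compared with MC38-MOCK#1. The part of this shift in the members' values was not tested.

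Non-clustered protocadherins, which are single genes on other chromosomes or outside the cluster, were read next. Of 12 genes 10 were tested across the 8 lines and 8 were called, against 40.8% of all genes and 67.7% of those with a mean of at least 10. Pcdh18 (142 to 925 normalized counts), Pcdh19 (208 to 725) and Pcdh7 (45 to 383) were above 10 in all samples. Pcdh7 was lower in MC38-COSMC KO than in MC38-MOCK#1 (78 to 89 against 198 to 234, adjusted p = 0.0011, limma) and higher in the line labelled FUT4 than in MC38-MOCK#2 (347 to 383 against 121 to 181, adjusted p = 0.00224). It was also lower in MC38-CMAS KO than in MC38-MOCK#1 (-0.65 log2, adjusted p = 0.0341) and in MC38-FUT9 than in MC38-MOCK#2 (-1.38, adjusted p = 0.00394, both limma). Pcdh17 was also higher in the line labelled FUT4 (106 to 139 against 21 to 24, adjusted p = 0.000479) and lower in MC38-FUT9 (3 to 11, adjusted p = 0.0265). MC38-MOCK#2, the reference of both, was itself lower in Pcdh17 than MC38-MOCK#1 (-1.83 log2, adjusted p = 0.00253, limma).

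Of 24 genes known to regulate the cluster 23 were above 10 normalized counts in all samples, while Tet1, a DNA demethylase, did not exceed 5. In MC38-FUT9 against MC38-MOCK#2, 12.1% of all genes tested were called higher. Among genes with a mean of at least 10, 38.5% were called in either direction, and the share called higher was not counted. By limma 13 of the 24 regulators were higher in MC38-FUT9 and none lower. Among them were Ctcf, the insulator protein (2233 to 2589 against 1806 to 1971 normalized counts, adjusted p = 0.0175), Dnmt3a, a DNA methyltransferase (771 to 957 against 479 to 623, adjusted p = 0.00892), and Smchd1, which silences clustered protocadherins (3132 to 3253 against 2653 to 2735, adjusted p = 0.0147). Cohesin's loader Nipbl was also among them. Between the mock lines, 3 of the 24 were called, against 11.3% of all genes tested and 20.3% of those with a mean of at least 10. Dnmt3b (189 to 291 against 350 to 411, adjusted p = 0.047) and Smc1a (adjusted p = 0.00584) were lower in MC38-MOCK#2. Nipbl was higher there (adjusted p = 0.00753, all limma). In MC38-DKO none of the 24 was called against MC38-MOCK#1, where 0.092% of all genes tested were. The relation of these genes to the members was not tested.

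Of 20 partners of the proteins, which cleave them or act with their intracellular part, 19 were above 10 normalized counts in all samples. Across the 8 lines 14 of the 20 were called, against 40.8% of all genes. Among genes with a mean of at least 10 the share called was 67.7%, which is near that of the partners. Cyfip2, a subunit of the WAVE complex that binds the receptors' tails, had 12 to 14 normalized counts in MC38-MOCK#2, 87 to 98 in MC38-MOCK#1 and 150 to 188 in the line labelled FUT4 (-2.72 log2 between the mock lines, adjusted p = 0.000878, limma). Adam10, the protease that sheds the extracellular part, was lower in MC38-COSMC KO by 0.26 on the log2 scale (adjusted p = 0.0214, limma).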

How the data were processed

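Polyadenylated RNA of 24 samples was sequenced by the authors as stranded single reads. The submitters' processing notes name HISAT2 2.0.4, SAMtools 0.1.19, Subread 1.5.0-p3 with featureCounts, edgeR 3.18.1 and GRCm38. Reads overlapping several genes were not assigned, per the methods. The strand setting is not given in the sources used here, but 37 of 463 genes that lie wholly under exons of the other strand had summed values of at least 100, which counting without strand could not give. The deposited values are a score: the authors scaled the counts of each library by its size and TMM factor and rounded them, so no count model was used.

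Members and lists were chosen with earlier results of these data known. Values were tested with limma 3.58.1 (R 4.3.3; lmFit, eBayes with trend) on log2(value + 1), with Benjamini-Hochberg adjustment over all genes tested and a threshold of 0.05. Genes above 0 in fewer than 2 of 6 samples (3 in larger fits) were left out. The text names members with a mean of at least 10 in some line, and those called between lines. Same-numbered samples of MC38-MOCK#1 and the knockout lines share their passage, as do those of MC38-MOCK#2 and MC38-FUT9. The main fits did not pair samples, since in no comparison did every same-numbered pair correlate above 0.1. All correlations were positive between the mock lines (0.08 to 0.25) and between MC38-FUT9 and MC38-MOCK#2 (0.09 to 0.19), so that a pairing there is not excluded. The limma code was tested on simulated data. Depth estimates were kept where at least 0.5 of a score for whole steps was reached, a limit set after seeing them. Python 3.11.15, pandas 2.3.3, numpy 2.4.6 and matplotlib 3.10.9 did the rest.

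Alternatives were a pseudocount of 5, a mean of at least 10, equal totals, no trend, a fold limit, a replicate block, 1 fit of all lines, and leaving out each sample. A test across the lines without the line labelled FUT4 was added after the data had been seen.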

Additional observations from a re-analysis of the deposited data

Results flagged for a closer look

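The interaction term of COSMC KO and CMAS KO passed in 7 of 48 members tested, by limma with the adjusted p given in the report, against 20.8% of all genes tested. The interaction on the log2 scale was 1.75 for Pcdha8, 3.26 for ENSMUSG00000007440, -3.59 for Pcdhb16, -2.50 for Pcdhb21, -1.85 for Pcdhb22, -3.63 for Pcdhga6 and -2.39 for Pcdhga9. Taken apart, the change of Pcdhb16 was 0.36 from MC38-MOCK#1 to MC38-COSMC KO and -3.22 from MC38-CMAS KO to MC38-DKO, that of Pcdhb21 was 0.80 and -1.70, and that of Pcdhb22 was 0.60 and -1.25. For ENSMUSG00000007440 these values were -1.66 and 1.60. The calls of Pcdhb16, Pcdhb21, Pcdhga6, Pcdhga9 and ENSMUSG00000007440 held in all 12 fits that left out 1 sample, whereas those of Pcdha8 and Pcdhb22 were lost in 7 and 9 of them. Each genotype was represented by 1 line, so that effects of the knockouts cannot be told apart from differences between lines. Between MC38-DKO and MC38-MOCK#1 only 20 of 21738 genes were called. The alpha sums of MC38-WT and MC38-MOCK#2 were low, like those of the single knockouts. In the same test 114 of 144 other genes of chromosome 18 called in the interaction had a positive value (median over the tested ones 0.28), opposite to the beta and gamma members called.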

How the results depend on the processing

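No value of a called member changed direction under any alternative, but few calls were firm. Of 28 calls of a member in a comparison or the interaction, 8 held in every fit without 1 sample. Under the other alternatives, 10 held in each one in which the member was tested. Only 13 of the 28 calls could be tested among genes with a mean of at least 10, where they held. The remaining calls were on members too low for that filter. The replicate block, which treats same-numbered samples as paired, lost 12 of the 28. With it the members called were 0 in MC38-COSMC KO, 0 in MC38-CMAS KO, 0 in MC38-DKO, 0 in MC38-WT, 2 in MC38-MOCK#2, 3 in the line labelled FUT4, 6 in MC38-FUT9, 7 in the interaction and 16 across the lines, and over all genes it left 4, 1, 0 and 0 calls in the first 4 in place of 2563, 1268, 20 and 1192, and 1756 in place of 3509 for the line labelled FUT4. Without a trend 0 members were called in MC38-COSMC KO, 3 in MC38-MOCK#2, 3 in the line labelled FUT4 and 3 in MC38-FUT9, with 1135, 726, 40, 717, 1389, 2270 and 3430 genes called in the 7 comparisons in the order of the report. One fit of all 8 lines called 0 members in MC38-COSMC KO, 4 in MC38-WT, 9 in MC38-MOCK#2 and 9 in the line labelled FUT4, and 2207, 159, 2981 and 3976 genes in MC38-CMAS KO, MC38-DKO, MC38-WT and MC38-MOCK#2. Among genes with a mean of at least 10, 9 members were called across the lines, 1 in MC38-CMAS KO, 3 in the line labelled FUT4, 3 in MC38-FUT9 and 2 in the interaction, of only 8 to 12 members tested. The 9 of 11 across the lines stand against 67.7% of all genes, and 6 of 12 between the mock lines against 20.3%. Without the line labelled FUT4, 15 members were called across the other 7 lines. Leaving out 1 sample gave 0 to 0 calls in MC38-COSMC KO, 0 to 2 in MC38-CMAS KO, 0 to 1 in MC38-WT, 0 to 4 in MC38-MOCK#2, 2 to 4 in the line labelled FUT4, 2 to 7 in MC38-FUT9 and 12 to 18 across the lines. The genes called fell in these fits too, to 675 to 2137 in MC38-COSMC KO, 122 to 876 in MC38-CMAS KO, 0 to 4 in MC38-DKO, 31 to 693 in MC38-WT, 632 to 1737 in MC38-MOCK#2, 1621 to 3112 in the line labelled FUT4 and 3089 to 5065 in MC38-FUT9. The number of members on in MC38-WT was 7 to 11.

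A member called on at 5 instead of 10 normalized counts gave 15 in MC38-WT, 14 in MC38-MOCK#1, 15 in MC38-COSMC KO, 17 in MC38-CMAS KO, 11 in MC38-DKO, 13 in MC38-MOCK#2 and 13 in MC38-FUT9, and at 20 it gave 3, 5, 4, 4, 1, 2 and 2 in these lines and 2 in the line labelled FUT4. Scaled to 1 total, the alpha sum was 5.90 in MC38-COSMC KO and 2.03 in MC38-MOCK#2. Of the 45 members that were on in no line, several were called on differences of a few reads, and 1 read more or less changes such values by a large part.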
